A study of Mus musculus with 16 samples.

Results

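The genes described here are 10 genes of brain lipoprotein biology: Apoe, Apoc1, Clu, Apod, Lpl, Pltp, Lrp1, Lrp8, Vldlr and Sorl1. They were chosen by name, as brain apolipoproteins, particle-modifying proteins and lipoprotein receptors, with earlier results of these data known. Each matched 1 of the 54532 rows of the count table. All 10 were among the 17736 genes that passed the filter on low counts. RNA of brain tissue from female mice of 9 months of age was sequenced in 16 libraries. The first group of 4 libraries was Ch25h+/+ Tau-, which has both copies of Ch25h, and the second was Ch25h+/+ Tau+. The other two groups, Ch25h-/- Tau- and Ch25h-/- Tau+, lack Ch25h and have 4 libraries each. The label Tau+ is taken to mean that the mice carry a transgene for tau, and "with tau" and "without tau" below stand for Tau+ and Tau-. The labels do not name the transgene, its promoter or the way Ch25h was removed. The labels give frontal cortex as the tissue and the series text gives the hippocampus.

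Lipoprotein particles of the brain are built mainly by glia. Apoe, made above all by astrocytes and also by activated microglia, is loaded with cholesterol and phospholipid by transporters such as Abca1 and Abcg1 and then taken up by neurons and glia through lipoprotein receptors. Clu (clusterin, or apolipoprotein J) is a second abundant carrier from astrocytes, and Apod is a lipocalin of oligodendrocytes and astrocytes that was named an apolipoprotein for its place on plasma particles. Ch25h makes 25-hydroxycholesterol, an oxysterol that activates the LXR nuclear receptors, and Apoe, Apoc1, Abca1, Lpl and Pltp are known LXR target genes. The comparisons below ask how these genes differ with tau and with the loss of Ch25h.

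Short stretches of the coding sequence show the basic region of the ligand and the adaptor signal of its receptors, and they are given for the genes whose values are compared below. Apoe binds its receptors through a run of basic residues. Of all 8-codon windows of its 311 codons, 4 overlapping windows, starting at codons 150 to 153, held the most basic residues (5 of arginine and lysine). The first of them, codons 150 to 157, lies in exon 4 on the minus strand (GRCm38, GENCODE M21, chr7:19696842-19696871), with its 24 bases in capitals. Lrp1, Lrp8 and Vldlr carry NPxY, the asparagine, proline, any residue, tyrosine signal that docks adaptors such as Dab1, in their cytoplasmic tails. Its 12 bases are in capitals below.
Apoe, codons 150 to 157: acaCACCTGCGCAAGATGCGCAAGCGCttg
Lrp1, codons 4471 to 4474: gaaattggaAACCCTACCTACaagatgtat
Lrp1, codons 4505 to 4508: aacttcaccAACCCAGTGTATgccacgctc
Lrp8, codons 855 to 858: aatttcgacAACCCAGTGTACaggaaaacg
Vldlr, codons 834 to 837: aactttgacAATCCTGTGTACttgaagacc
The Lrp1 sites are at chr10:127539299-127539328 (exon 88) and chr10:127539055-127539084 (exon 89), both on the minus strand. The Lrp8 site is at chr4:107869052-107869081 (exon 17) and the Vldlr site at chr19:27247931-27247960 (exon 18), both on the plus strand. NPxY was searched in the reading frame over the last 120 codons of each protein, where 0.889% of 21479 coding genes held it. Sorl1, which sorts cargo in endosomes, had 0 matches there, which says only that these residues are not in that window.

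Totals ran from 15530352 to 25602500 counts per library. Ch25h had 0 counts in all 8 Ch25h-/- libraries (a count of 0 allows up to 3 counts) and 5 to 30 counts in each Ch25h+/+ library. Prnp, named here after its values were seen, lay between 708 and 839 CPM (counts scaled to a common library size) in the Tau- libraries and between 1414 and 1935 CPM in the Tau+ libraries. No 2 of the 120 pairs of libraries held identical counts. The ribosomal transcript CT010467.1 split the libraries in 2 classes: 7 of the 8 Ch25h-/- libraries held 2289 to 5684 CPM of total counts, and the other 9 held 111 to 475. Ch25h-/- Tau+ replicate 1 (153 CPM) was the 1 Ch25h-/- library of the rRNA-poor class, so genotype and library class can hardly be told apart. Among Tau- libraries they coincide. A fit with library class as a covariate therefore takes the class effect from that 1 library against the others of its group. Cortex markers summed to 685 to 914 CPM and hippocampus markers to 117 to 274 CPM, and markers of neurons, astrocytes, oligodendrocytes and microglia were all detected in each group. Choroid plexus markers varied from 16.7 to 2757 CPM between libraries.

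Per kilobase of exon, Apoe was the most abundant of the 10 genes, at a mean of 783 CPM per kb over the 16 libraries. Clu followed at 251 and Apod at 53.3 CPM per kb, and the lowest Apod library (36.6) lay within the range of Lrp1 (23.9 to 40.2). Lrp1 (31.8), Sorl1 (29.9) and Pltp (27.2) overlapped in their ranges over libraries, and so did Lrp8 (8.56) and Vldlr (7.41). Lpl stood at 2.39 CPM per kb and Apoc1 at 0.815. Apoe ranked 28 of all genes by mean CPM. Apoc1 lies in the same cluster on chromosome 7, and 3448 bases separate the annotated ends of the 2 genes, yet per 1000 Apoe counts the libraries held 0.0678 to 0.790 Apoc1 counts.

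**Figure D1:**
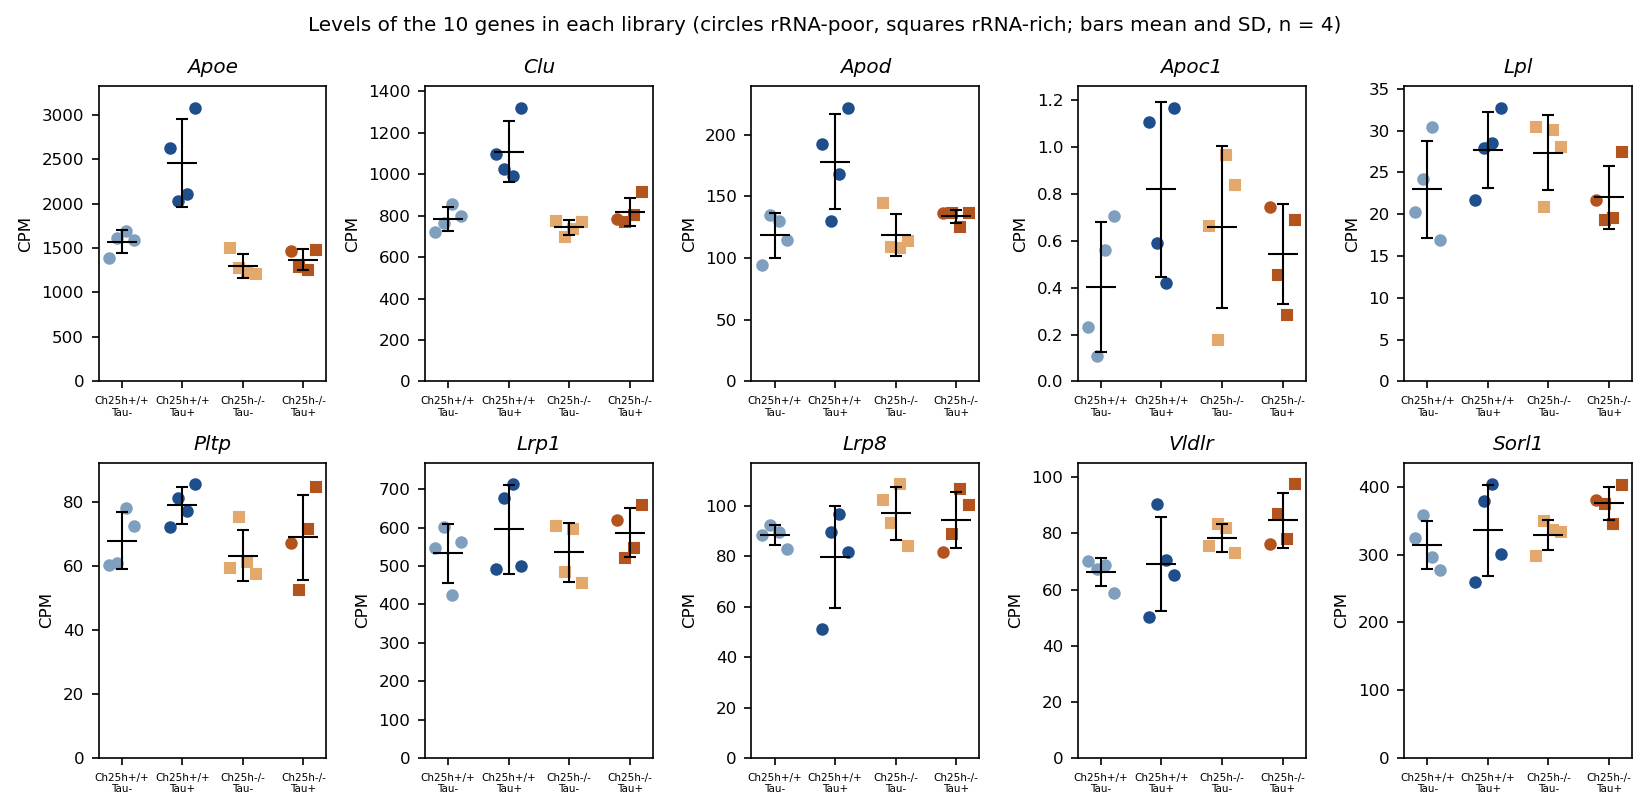
Levels of the 10 genes in CPM on TMM-scaled library sizes, 1 point per library, in the 4 groups of 4, with the mean and SD as bars. Apoe and Clu were higher in the 4 Ch25h+/+ Tau+ libraries (2024 to 3076 and 990 to 1320 CPM) than in all other libraries, while the receptor genes overlapped between most groups.

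With Ch25h present, 3 of the 4 secreted carriers were higher with tau: Apoe 1.56-fold, Clu 1.41-fold and Apod by 0.59 on the log2 scale. In Ch25h+/+ Tau- the 4 libraries held 1392, 1612, 1690 and 1589 CPM of Apoe (mean 1571 ± 127, SD, n = 4). In Ch25h+/+ Tau+ they held 2623, 2024, 2102 and 3076 CPM (2456 ± 491, SD, n = 4). Every Tau+ library lay above every Tau- library, as for 3.89% of all genes tested, and Tau+ replicates 1 and 4 were the highest of the 16. The difference was 0.64 on the log2 scale (SE 0.12, adjusted p = 0.00561, edgeR quasi-likelihood test with Benjamini-Hochberg adjustment over the 17736 genes). Clu read 719, 767, 854 and 796 CPM without tau (784 ± 56.4, SD, n = 4). With tau it read 1096, 1026, 990 and 1320 CPM (1108 ± 148, SD, n = 4). Again no library overlapped, and replicate 4 was the highest. The log2 difference of Clu was 0.50 (SE 0.091, edgeR adjusted p = 0.00488).

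Apod rose as well, with less separation. Its levels were 94.4, 135, 130 and 114 CPM in Ch25h+/+ Tau- (119 ± 18.3, SD, n = 4) and 193, 130, 169 and 222 CPM in Ch25h+/+ Tau+ (178 ± 38.8, SD, n = 4). Tau+ replicate 2 lay inside the Tau- range and the other 3 above it. The log2 difference was 0.59 (SE 0.14, edgeR adjusted p = 0.0338). The call of Apod was lost without Ch25h+/+ Tau- replicate 1 (0.50, adjusted p = 0.141) or replicate 4 (0.57, 0.112), and without Ch25h+/+ Tau+ replicate 1 (0.56, 0.0770) or replicate 4 (0.47, 0.181). It was also lost in a fit of only the 8 libraries compared (0.60, 0.139) and over the rRNA-poor libraries (0.59, 0.138). Apoc1, a small apolipoprotein that inhibits lipolysis and lipid transfer, held 5, 2, 13 and 14 counts without tau and 18, 14, 9 and 25 with it. These counts overlap and give a log2 difference of 0.99 with a wide error (SE 0.52, edgeR adjusted p = 0.623), so a difference was not shown.

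Neither particle-modifying gene passed the test for tau with Ch25h present. Lpl, the lipase that releases fatty acids from particles and is also a gene of activated microglia, was at 23.0 ± 5.79 CPM without tau and 27.7 ± 4.56 CPM with it (SD, n = 4 each). Pltp, which transfers phospholipid between particles, was at 67.9 ± 8.80 and 78.9 ± 5.72 CPM. Their log2 differences were 0.27 and 0.22, with adjusted p of 0.722 and 0.668 by edgeR.

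None of the 4 receptor genes passed either, and their log2 differences lay between -0.14 (Lrp8) and 0.16 (Lrp1). Lrp1, the large endocytic receptor for Apoe that also takes up tau, had a 95% interval of -0.11 to 0.43. Lrp8 and Vldlr, the reelin receptors, had intervals of -0.42 to 0.13 and -0.19 to 0.31. Sorl1 had one of -0.13 to 0.32. Ch25h+/+ Tau+ replicate 1 was low in 3 of these receptors, at 51.0 CPM of Lrp8, 50.2 of Vldlr and 259 of Sorl1, each the lowest of all 16 libraries. The sum of the 10 general astrocyte markers was also lowest in that library (2760 CPM), while its Apoe was the second highest.

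In all, 3 of 10 genes were called higher with tau where Ch25h was present, against 1.56% of all genes tested called in either direction and 1.47% called higher. The median log2 difference of the 10 genes was 0.24, and over all genes it was -0.01.

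Where Ch25h was absent, none of the 10 genes passed the test for tau, Apoe, Clu and Apod included. Apoe read 1502, 1275, 1221 and 1209 CPM in Ch25h-/- Tau- (1302 ± 136, SD, n = 4) and 1464, 1285, 1250 and 1477 CPM in Ch25h-/- Tau+ (1369 ± 118, SD, n = 4). The groups overlapped over nearly their whole ranges. The log2 difference was 0.07 with a 95% interval of -0.16 to 0.31. Clu was at 744 ± 35.2 and 817 ± 66.2 CPM (SD, n = 4 each), a log2 difference of 0.14 with an interval of -0.04 to 0.31. Apod was at 119 ± 17.3 and 134 ± 5.54 CPM, with an interval of -0.10 to 0.44. Lpl differed by -0.31 on the log2 scale, the opposite sign to that in Ch25h+/+, with an interval of -0.65 to 0.02. In edgeR's test 0 of 10 genes were called, 0 had an unadjusted p under 0.05, and DESeq2 and limma-voom called 0, against 0.0395% of all genes tested called by edgeR.

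Whether the tau difference itself depended on Ch25h was tested by the interaction, the tau effect in Ch25h-/- minus that in Ch25h+/+. It was -0.57 for Apoe (SE 0.17, unadjusted p = 0.00314, adjusted p = 0.453, edgeR), -0.36 for Clu, -0.42 for Apod and -0.59 for Lpl. These 4 genes had an unadjusted p under 0.05, and 0 of 10 passed after adjustment by edgeR, DESeq2 or limma-voom. Only 0.0338% of all genes tested passed in edgeR. The tau effects on Apoe and Clu, called with Ch25h and not called without it, are therefore not shown to differ between the genotypes once all genes are adjusted for.

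**Figure D2:**
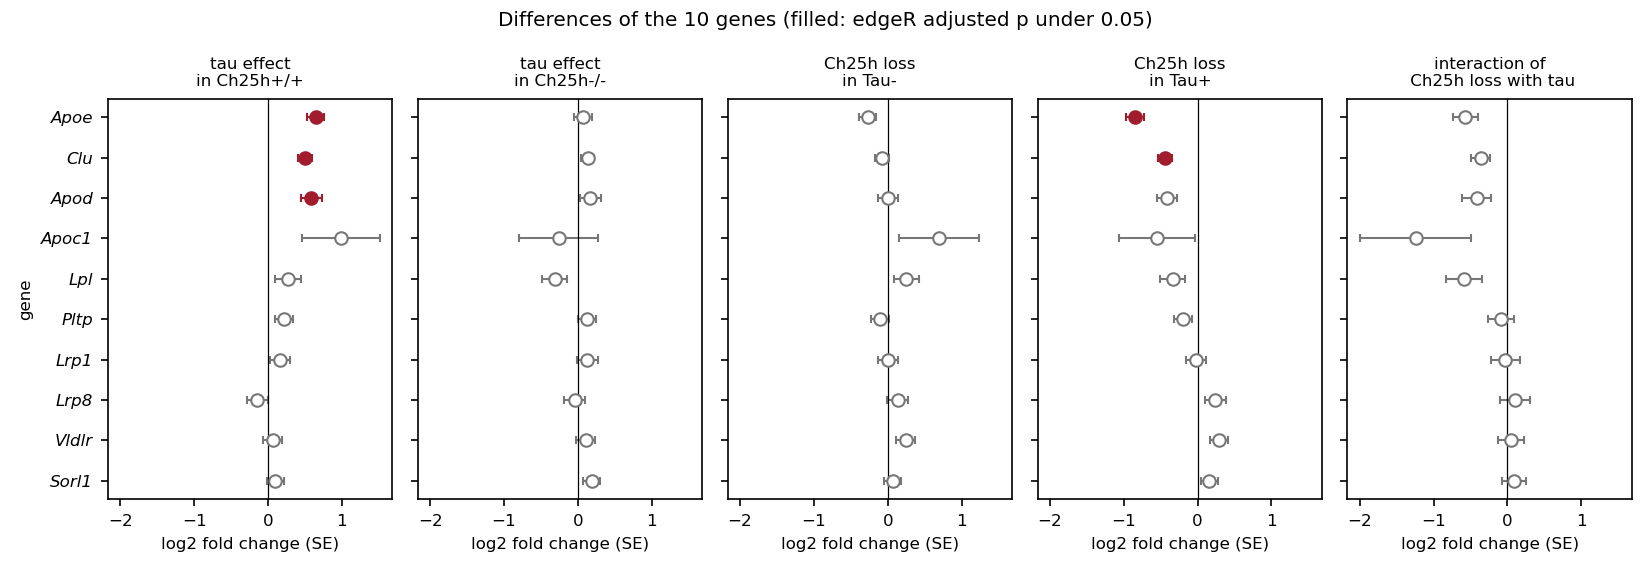
Log2 fold change of each gene with its SE in the 5 comparisons, with filled points where the edgeR adjusted p was under 0.05. Apoe, Clu and Apod were called with tau in Ch25h+/+, Apoe and Clu with Ch25h loss in Tau+, and none of the 10 genes in the other 3 comparisons.

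Loss of Ch25h without tau left all 10 genes short of the threshold. Apoe was lowest in this comparison, with 1209 to 1502 CPM in Ch25h-/- Tau- against 1392 to 1690 CPM in Ch25h+/+ Tau-, and its groups overlapped. The log2 difference of -0.27 (SE 0.12) had an edgeR adjusted p of 0.203. It was -0.14 (SE 0.23) with library class as a covariate and -0.07 with GC offsets. Genotype and class coincide among Tau- libraries, so the covariate value rests on Ch25h-/- Tau+ replicate 1 and cannot separate them. Apoe was the 1 gene of 10 with an unadjusted p under 0.05. After adjustment by edgeR, DESeq2 or limma-voom 0 of 10 passed, against 1.03% of all genes tested in edgeR. Clu (-0.08), Apod (0.00), Pltp (-0.10) and Lrp1 (0.01) lay close to 0 on the log2 scale.

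Vldlr was higher in every Ch25h-/- Tau- library (75.5, 83.5, 81.8 and 73.0 CPM) than in every Ch25h+/+ Tau- library (70.1, 67.3, 68.9 and 58.8 CPM). Such a gap was found for 1 of the 10 genes, against 7.64% of all genes tested that were higher without overlap. The log2 difference was 0.24 (SE 0.13, edgeR adjusted p = 0.288). Vldlr lies on chromosome 19, as Ch25h does, 7.22 Mb away. Whether this position bears on the difference was not tested. In Tau+ mice Vldlr differed by 0.29 in the same direction, with 76.4, 87.1, 77.9 and 97.5 CPM against 50.2, 90.5, 70.5 and 65.3 CPM. There the groups overlapped through Ch25h+/+ Tau+ replicate 2, and the edgeR adjusted p was 0.179. Without that replicate the difference was 0.43 and the edgeR adjusted p 0.0303, and without Ch25h+/+ Tau+ replicate 1, the lowest library, it was 0.16 and the adjusted p 0.428. With library class as a covariate the difference of Vldlr was 0.05 in Tau- and 0.14 in Tau+. These values rest on Ch25h-/- Tau+ replicate 1, the 1 rRNA-poor Ch25h-/- library. With GC offsets the differences were 0.13 and 0.18, with no call in any of these fits.

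With tau, the loss of Ch25h went with lower Apoe and Clu. The 4 Apoe values of Ch25h-/- Tau+ given above, up to 1477 CPM, all lay under the lowest of Ch25h+/+ Tau+, 2024 CPM. The fold was 0.557, or -0.84 on the log2 scale (SE 0.12, edgeR adjusted p = 0.00112). Clu read 783, 768, 801 and 914 CPM against 990 to 1320 CPM, also without overlap, a log2 difference of -0.44 (SE 0.091, edgeR adjusted p = 0.0161). Thus 2 of 10 genes were called lower, against 3.55% of all genes tested called in either direction and 2.40% called lower. Non-overlapping lower groups were found for 2 of 10 genes, against 5.74% of all genes. The median log2 difference of the 10 genes was -0.27, and over all genes it was 0.00.

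The 2 comparisons that called Apoe and Clu share the Ch25h+/+ Tau+ libraries, in which both genes were highest. Side by side, Apoe read 0.64 for tau in Ch25h+/+ and -0.84 for Ch25h loss in Tau+, and Clu read 0.50 and -0.44. Of the 4 Ch25h-/- Tau+ libraries, replicates 1 and 4 lay inside the Apoe range of Ch25h+/+ Tau- (1392 to 1690 CPM) and the other two under it. In counts from the same library, which need no scaling between libraries, the ratio of Apoe to Clu among Tau+ libraries spanned 1.97 to 2.39 with Ch25h and 1.56 to 1.87 without. The value of 1.87 belonged to replicate 1, the 1 rRNA-poor library of its group, and the 3 rRNA-rich ones read 1.56 to 1.67. The part of library class in this ratio was not tested. Among Tau- libraries it spanned 1.94 to 2.10 with Ch25h and 1.57 to 1.95 without, so the ratio was lower on average without Ch25h in both tau states, and the Tau- groups overlapped by 1 library (1.95 against a lowest value of 1.94).

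The other secreted and particle genes were lower by point estimate in Ch25h-/- Tau+ without passing. Apod read 136, 137, 125 and 137 CPM against 130 to 222, a log2 difference of -0.41 (SE 0.14, edgeR adjusted p = 0.0895). It was called by DESeq2 (adjusted p = 0.0420), by edgeR with no filter beyond 1 count (0.0273) and by edgeR without Ch25h+/+ Tau+ replicate 2 (-0.56, 0.0187). It was not called in the other 23 alternatives. Among these, the difference was -0.30 without Ch25h+/+ Tau+ replicate 4 (edgeR adjusted p = 0.254) and -0.39 with library class as a covariate (0.976). Lpl differed by -0.34, Pltp by -0.19 and Apoc1 by -0.55, with edgeR adjusted p from 0.241 to 0.544. Among the receptors, Lrp8 differed by 0.24 and Sorl1 by 0.16, with 95% intervals of -0.04 to 0.52 and -0.07 to 0.39. Over all alternatives Lrp8 ranged from 0.031 to 0.35 and Sorl1 from 0.0505 to 0.26. Lrp1 differed by -0.02, with an interval of -0.29 to 0.25.

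The calls of Apoe and Clu for Ch25h loss in Tau+ were both lost with library class as a covariate. In that fit the difference rests on 1 rRNA-poor Ch25h-/- library, Ch25h-/- Tau+ replicate 1, against the 4 Ch25h+/+ Tau+ libraries. There the log2 difference of Apoe was -0.75 (SE 0.20, edgeR adjusted p = 0.437) and that of Clu -0.50 (SE 0.15, edgeR adjusted p = 0.606). In that fit 10 genes of the whole table were called, against 629 without the covariate. Over rRNA-poor libraries alone, with 1 Ch25h-/- Tau+ library against 4, the values were -0.74 for Apoe and -0.50 for Clu. This is in effect the same comparison, with the lone library assumed to vary like the others. That library, Ch25h-/- Tau+ replicate 1, held 1464 CPM of Apoe and 783 CPM of Clu, under all 4 Ch25h+/+ Tau+ libraries. Both genes are richer in GC (Apoe 59.5%, Clu 55.6%) than the median gene tested (49.6%). After offsets that remove each library's trend with GC content, Apoe differed by -0.65 (edgeR adjusted p = 0.00542) and Clu by -0.31 (0.104). The call of Clu was also lost in a fit of only the 8 libraries compared (adjusted p = 0.0936) and without Ch25h+/+ Tau+ replicate 4 (0.0626), Ch25h-/- Tau+ replicate 2 (0.0523) or Ch25h-/- Tau+ replicate 3 (0.0601). The tau comparison in Ch25h+/+ uses libraries of the rRNA-poor class only, and in a fit of the 9 rRNA-poor libraries Apoe read 0.65 (edgeR adjusted p = 0.0330) and Clu 0.50 (0.0340).

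**Figure D3:**
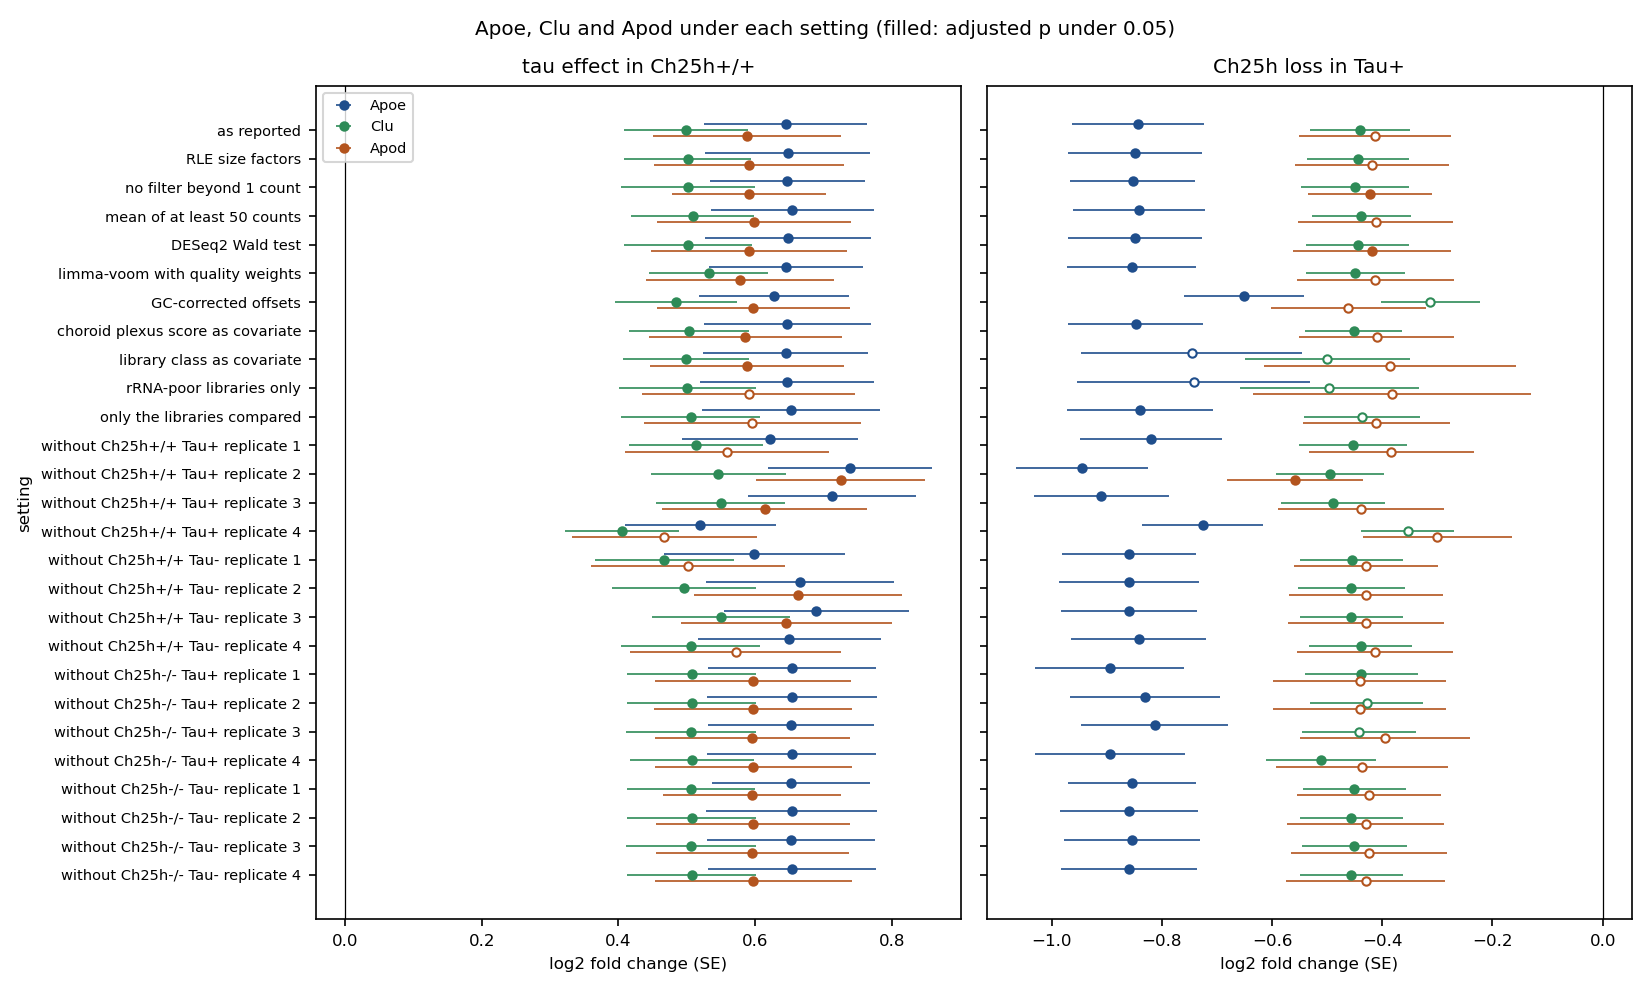
Log2 fold change with SE of Apoe, Clu and Apod under each setting (rows), for tau in Ch25h+/+ (left) and Ch25h loss in Tau+ (right), with filled points where the adjusted p was under 0.05. On the left Apoe and Clu stayed called, from 0.52 to 0.74 and from 0.41 to 0.55. On the right Apoe ranged from -0.95 to -0.65 and Clu from -0.51 to -0.31, with open points where the call was lost.

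Marker lists of glial, vascular and macrophage cells were summed in the same groups. Markers of activated microglia (10 genes, Apoe and Lpl left out) summed to 82.6 to 92.3 CPM in Ch25h+/+ Tau- libraries and reached 163 to 283 CPM in Ch25h+/+ Tau+. Without Ch25h they summed to 79.7 to 101 CPM in mice without tau and 89.8 to 119 CPM in mice with it. Of these 10, 10 were called higher with tau in Ch25h+/+ and 9 lower with Ch25h loss in Tau+, by the same edgeR fit (1.47% of all genes tested were called higher in the first and 2.40% lower in the second). Reactive astrocyte markers summed to 183 to 225, 592 to 1640, 168 to 237 and 214 to 383 CPM in the same order of groups. Of the 7 tested, 4 were called higher with tau (Gfap, Vim, Serpina3n and Osmr) and 3 lower with Ch25h loss in Tau+. General microglia markers summed to 323 to 350, 407 to 520, 312 to 351 and 322 to 389 CPM, with 3 of 10 called higher with tau and 4 of 10 lower with Ch25h loss in Tau+. General astrocyte markers (Apoe and Clu left out) summed to 3317 to 3634, 2760 to 4782, 3640 to 4385 and 3753 to 4570 CPM. Of these 10, 9 read higher with tau in Ch25h+/+ (median 0.19) and 8 lower with Ch25h loss in Tau+ (median -0.21), with 0 called in either comparison. With library class as a covariate, 0 markers of these 4 lists were called for Ch25h loss in Tau+. That fit rests on Ch25h-/- Tau+ replicate 1. Its median log2 difference was -2.08 for activated microglia, -1.35 for reactive astrocytes, -0.41 for general microglia and -0.13 for general astrocytes. Without the covariate these medians were -1.62, -0.83, -0.41 and -0.21. No marker of these 4 lists was at 0 in any group. For Apod, oligodendrocyte markers summed to 2839 to 3909 CPM in Ch25h+/+ libraries without tau and 2930 to 5365 CPM with it, and without Ch25h to 2253 to 3526 and 2787 to 4137 CPM. Of these 10, 10 read higher with tau in Ch25h+/+ (median 0.28) and 9 lower with Ch25h loss in Tau+ (median -0.16), with 0 called. With library class as a covariate the latter median was -0.00086. Markers of meningeal and mural cells summed to 207 to 278 CPM without tau and 310 to 389 CPM with it in the same genotype, with 1 of 9 called higher (Vtn). In Ch25h-/- libraries the meningeal and mural sums were 216 to 300 and 268 to 297 CPM. The median log2 difference of this list was 0.63 for tau in Ch25h+/+ and -0.27 for Ch25h loss in Tau+, where Vtn was called lower, a call lost with library class as a covariate and with GC offsets. Endothelial sums were 216 to 252 CPM in Ch25h+/+ without tau and 253 to 298 CPM with it, and 224 to 288 CPM in Ch25h-/- with tau, with 0 of 6 markers called in either comparison. Markers of border-associated macrophages summed to 5.79 to 14.1, 11.6 to 20.6 and 8.12 to 14.8 CPM in these 3 groups, again with 0 of 6 called. However, 6 of 6 read higher with tau (median 0.67) and 5 of 6 lower with Ch25h loss in Tau+ (median -0.45). With library class as a covariate the latter median was -0.25. With tau in Ch25h+/+, 0 of 6 striatum markers read higher (median -0.50), 7 of 7 choroid plexus markers (0.34) and 4 of 5 blood markers (0.64). Of these lists 0 markers were called, and with GC offsets 1 striatum marker was called lower. The part of these cells and tissues in the differences of Apoe, Clu and Apod was not tested. In bulk tissue, more or fewer cells of a type and more or less RNA per cell cannot be told apart.

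**Figure D4:**
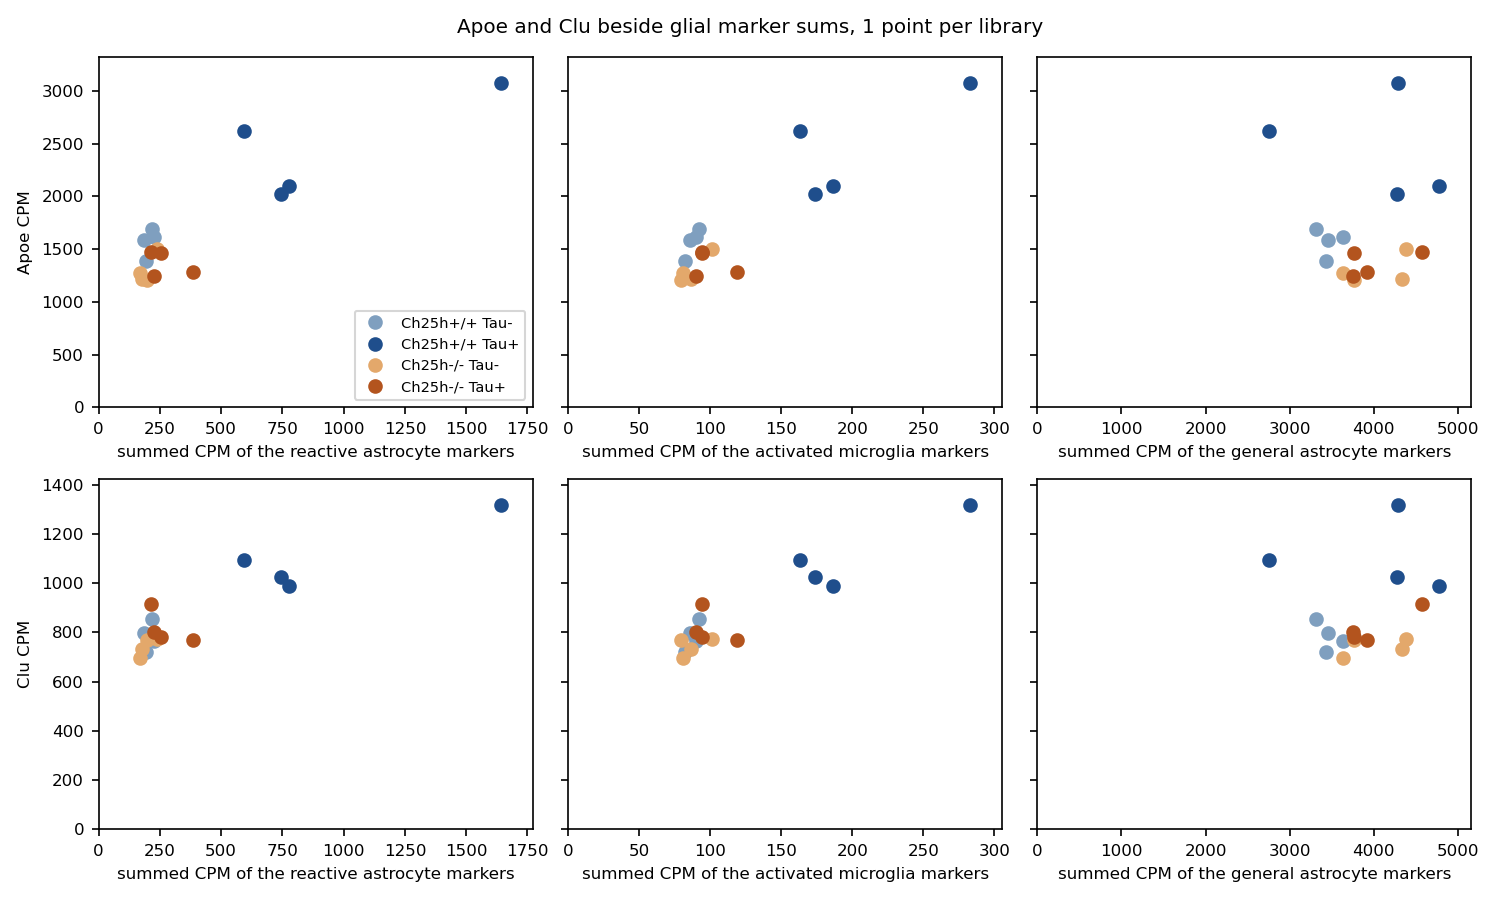
Apoe (top) and Clu (bottom) in CPM against the summed CPM of reactive astrocyte, activated microglia and general astrocyte markers, 1 point per library, coloured by group. Ch25h+/+ Tau+ replicate 4 is highest in Apoe (3076 CPM), Clu (1320 CPM) and both activation sums (1640 and 283 CPM), while Ch25h+/+ Tau+ replicate 1 combines the second highest Apoe (2623 CPM) with the lowest general astrocyte sum (2760 CPM).

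The genes whose profile over the 16 libraries lay nearest to that of Apoe were Arpc1b, Dbi, Id3, Fermt3 and Tnfrsf1a, out of 13960 genes. The distance was the root mean square difference of mean-centred log2(CPM + 0.5), which was 0.121 for Arpc1b and 0.136, 0.142, 0.142 and 0.151 for the others, beside an SD of 0.40 for Apoe itself. Arpc1b is a subunit of the actin-branching Arp2/3 complex, Dbi an acyl-CoA-binding protein, Id3 an inhibitor of helix-loop-helix factors, Fermt3 an integrin activator of blood and immune cells, and Tnfrsf1a a TNF receptor. Nearest to Apoc1 were Nr1h3, Swap70, Bmf, Spsb2 and Prdx4, at distances of 0.296 to 0.310, beside an SD of 0.44 for Apoc1. The low counts of Apoc1 (2 to 25 per library) make that order uncertain. Nr1h3 encodes LXR alpha, and its own log2 differences were 0.28 for tau in Ch25h+/+ and -0.34 for Ch25h loss in Tau+ (edgeR adjusted p = 0.729 and 0.265).

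The other genes of the pathway were counted by list. Of 16 other apolipoprotein genes, 3 passed the filter (Apoo, Apool and Apol8) and 0 were called in any comparison. The other lists were 18 tested of 21 other receptors, 13 of 13 receptor partners, 9 of 13 other particle enzymes and 9 of 9 lipidation genes. In both tau comparisons and the interaction 0 of these genes passed. Of the genes tested in these lists, Ch25h loss called 1 of 18 other receptors and 1 of 9 lipidation genes in Tau-, beside 1.03% of all genes. In Tau+ it called 1 of 18 other receptors, 1 of 13 partners, 1 of 9 enzymes and 1 of 9 lipidation genes, beside 3.55% of all genes. With Ch25h loss in Tau-, Lrp3, an orphan member of the lipoprotein receptor family, was lower (-0.27, edgeR adjusted p = 0.0497). So was Rxrb, a partner receptor of LXR (-0.42, edgeR adjusted p = 0.0497). With Ch25h loss in Tau+, Rxrb was again lower (-0.37, edgeR adjusted p = 0.0459). In the same comparison the heparan sulfate carrier Sdc4 (-0.68, 0.0156) and the lipase maturation factor Lmf2 (-0.34, 0.0387) were lower and the sortilin family receptor Sorcs3 (0.43, 0.0462) was higher. With library class as a covariate, where values rest on Ch25h-/- Tau+ replicate 1, none of these 6 calls passed. There Sorcs3 read 0.66 and Sdc4 -0.63, as large or nearly as large as before. Lmf2 read -0.16, Lrp3 -0.12 and Rxrb -0.03 in Tau+ and 0.07 in Tau-. With GC offsets Sdc4 alone of the 6 stayed called. There Sorcs3 read 0.44, Lmf2 -0.19, Lrp3 -0.02, and Rxrb -0.17 in Tau+ and -0.19 in Tau-. Over 25 or 26 alternatives, the call of Sdc4 held in 22, that of Lmf2 in 14, that of Rxrb in 12 (Tau+) and 7 (Tau-), and those of Lrp3 and Sorcs3 in 7 each.

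In the fit as reported, Sdc4 had the largest log2 difference of these. It lay at 53.2 to 81.3 CPM in Ch25h+/+ Tau+ and at 36.6 to 43.1 CPM in Ch25h-/- Tau+, and its log2 difference for tau in Ch25h+/+ was 0.38 (edgeR adjusted p = 0.309). Its call was lost without Ch25h+/+ Tau+ replicate 4 (-0.57, edgeR adjusted p = 0.0672) or Ch25h-/- Tau+ replicate 2 (-0.65, 0.0529). Abca1, the transporter that loads Apoe with lipid, is named here after its values were seen. It stood at 28.9 ± 1.17 CPM in Ch25h+/+ Tau- and 46.6 ± 14.1 CPM in Ch25h+/+ Tau+ (SD, n = 4 each), a log2 difference of 0.69 (SE 0.17) that did not pass (edgeR adjusted p = 0.0501), while the median of the 9 lipidation genes was 0.02. In Ch25h-/- it was at 35.1 ± 3.08 CPM without tau and 36.0 ± 6.89 CPM with it. The difference with Ch25h loss in Tau+ was -0.38 (edgeR adjusted p = 0.192).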

How the data were processed

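The deposited table gave raw counts per gene and library, with no normalization by the authors; values were checked to be whole numbers. Per the labels' protocols, RNA was column-purified and a SMARTer mRNA kit was used for the libraries. STAR 2.7 and the build GRCm38/mm10 are named in the submitters' processing notes. The counting program, annotation and use of strand are not given in the sources used here, so reads of overlapping or antisense genes cannot be told apart. The labels carry no replicate numbers: replicates are numbered in record order, and they do not say that libraries came from separate mice, so p-values measure only the spread between these libraries.

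Counts were filtered with filterByExpr (17736 genes) and fitted with edgeR 4.0.16 in R 4.3.3: TMM scaling, 1 mean per group over all 16 libraries, quasi-likelihood F test, two-sided, Benjamini-Hochberg adjustment over all genes tested, threshold 0.05. Intervals are log2 differences with 95% normal limits. CPM use TMM-scaled library sizes. Alternatives were RLE size factors, other filters (1 count in any library, or a mean of 50 or more over the libraries), DESeq2 1.42.0, voom of limma 3.58.1 with quality weights, covariates for library class (rRNA-rich above 1000 CPM of CT010467.1) and choroid plexus score, GC offsets (loess, span 0.5), fits of only the libraries compared, and leaving out each library. Fits within 1 library class, and all fits of pathway and marker genes under these alternatives, were added after seeing the data. The fit was tested on simulated data. Positions, lengths and coding sequences come from GENCODE M21. The members and lists were chosen with earlier results of these data known. Named genes were the 10 members, pathway genes past the threshold and the 5 genes nearest in profile to Apoe and to Apoc1 among genes with a mean of at least 2 CPM. Any other gene outside the marker lists, such as Prnp and Abca1, was named after its values were seen, as stated there.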

Additional observations from a re-analysis of the deposited data

Results flagged for a closer look

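Of 40 groups of 4 libraries checked (10 genes in 4 groups), 2 held a library that stood apart from the other 3 by Dixon's ratio, both for Apod. Chance flags about 1 in 20 groups. Apod was at 144.4 CPM in Ch25h-/- Tau- replicate 1, above 108 to 114 CPM in the other 3. Apod was at 125.5 CPM in Ch25h-/- Tau+ replicate 3, under 3 values that lay within 136 to 137 CPM. Without Ch25h-/- Tau- replicate 1 the log2 difference of Apod for Ch25h loss in Tau- was -0.10 (0.0034 with all libraries), that for tau in Ch25h-/- was 0.27 (0.17) and the interaction was -0.32 (-0.42), all without a call.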

How the results depend on the processing

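The labels give no pairing of libraries between groups, so no paired analysis was made. The count of genes called for Ch25h loss in Tau+, 2 as reported, was 0 with library class as a covariate, 0 over rRNA-poor libraries (1 Ch25h-/- library against 4, assumed to vary like the other groups, with 3 of all genes called), 1 with GC offsets, 1 in a fit of only the 8 libraries compared, and 1 to 4 on leaving out a library. Counts in the other 4 comparisons stayed within 1.5 times, and 40 levels moved by less than 1 SD on total counts. Of 1265 alternative values of single differences, 1205 kept direction and call, 15 lost a call and 4 gained one. The other 41 changed sign, 0 of them of a called difference. Some settings could change a difference only slightly, such as leaving out a library of neither group compared. For tau in Ch25h+/+ the class covariate is the same in all libraries compared. All sign changes follow, on the log2 scale, and their cause was not tested. With library class as a covariate, Lrp8 read 0.023 for tau in Ch25h-/- and -0.14 for Ch25h loss in Tau-, Lrp1 read 0.055 for Ch25h loss in Tau+, and the pathway gene Rxrb read 0.066 for Ch25h loss in Tau-. Within 1 library class, Lrp8 read 0.011 for tau in Ch25h-/- and Lrp1 0.060 for Ch25h loss in Tau+. With GC offsets, Ch25h loss in Tau- read 0.053 for Clu, -0.042 for Apod and 0.058 for Pltp, and Ch25h loss in Tau+ read 0.13 for Lrp1. For Ch25h loss in Tau-, Apod and Lrp1 read -0.0046 and -0.0023 with no filter beyond 1 count, -0.031 and -0.031 with limma-voom, and -0.0019 and -4.2e-05 with the choroid plexus score. Leaving out a library gave ranges across 0. For tau in Ch25h+/+ they were -0.25 to 0.024 (Lrp8), -0.084 to 0.19 (Vldlr) and -0.0022 to 0.21 (Sorl1), and for tau in Ch25h-/- -0.11 to 0.016 (Lrp8). For Ch25h loss in Tau- they were -0.10 to 0.068 (Apod) and -0.094 to 0.071 (Lrp1), and in Tau+ -0.11 to 0.076 (Lrp1). For the interaction they were -0.21 to 0.0042 (Pltp), -0.12 to 0.071 (Lrp1), -0.070 to 0.21 (Lrp8), -0.089 to 0.19 (Vldlr) and -0.024 to 0.19 (Sorl1). Apoc1 had the fewest counts of the 10 genes, 2 to 25 per library, and a limit by depth was not tested. The 6 calls of pathway genes passed in 7 to 22 of 25 or 26 alternatives each.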
